A study of Caenorhabditis elegans with 12 samples.

Results

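Molting and apical matrix genes of *Caenorhabditis elegans* were examined in whole worms of 2 genotypes. The set holds 9 genes out of 46726 in the deposited expression table: *noah-1*, *noah-2*, *let-653*, *fbn-1*, *lpr-3*, *lpr-6*, *mlt-7*, *mlt-10* and *mlt-11*. They were found by matching these symbols to gene identifiers in the WBcel235 annotation, and all 9 matched. Some of the genes were chosen by their expression values at the L4 stage, because their RNA was higher in *alh-6* mutants than in wild type (WT) animals there. The values of that contrast are therefore given as a description, with no test, and nothing rests on them.

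The study sequenced RNA from WT animals of the N2 Bristol strain and from the SPC321 strain, which carries the *alh-6(lax105)* allele. *alh-6* encodes a mitochondrial dehydrogenase of proline breakdown. Animals of both genotypes were started as L1 larvae, fed OP50 bacteria and collected 48 hr later at the L4 stage, the last larval stage, or 120 hr later as day 3 adults. This gave 4 groups of 3 libraries: WT L4, *alh-6* L4, WT day 3 and *alh-6* day 3. The mutant groups stand on 1 allele in 1 strain. Libraries came from whole hermaphrodites, so the levels mix epidermis, germline and, in adults, the embryos held in the uterus. In such bulk RNA, fewer cells of a type and less RNA per cell cannot be told apart.

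The 12 libraries held 19248229 to 23575173 reads on genes, with a median of 20632421. The mutant allele was still transcribed, at 60.6 to 62.6 FPKM (fragments per kilobase of gene, scaled to the mapped reads of the library) at L4 and 32.0 to 34.8 FPKM at day 3. WT libraries held 68.4 to 70.5 and 31.8 to 33.9 FPKM of *alh-6* RNA, so this gene gives no check of the genotype labels. Adult cuticle collagen RNA was already abundant at L4, with 1322 to 1392 FPKM of *col-19* in WT L4 libraries and 79.8 to 93.6 FPKM in WT day 3 libraries.

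Nematodes grow by replacing the cuticle at each molt. Before a new cuticle is secreted, epithelial cells coat their apical surface with a transient matrix, the precuticle, which shapes the tissue and is shed or broken down as collagens are laid over it. Most genes of this program are transcribed once per larval stage, at a set time before the molt, and several precuticle genes are also used by the epidermis of the embryo. After the last molt, from L4 to adult, worms do not molt again.

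The products of the 9 genes fall into 3 kinds. NOAH-1, NOAH-2, LET-653 and FBN-1 are zona pellucida (ZP) domain proteins of the apical matrix. NOAH-1 and NOAH-2 are related to NompA of *Drosophila*, LET-653 lines the excretory duct and the vulva, and FBN-1 resembles fibrillins. LPR-3 and LPR-6 are lipocalins, secreted proteins of a family that binds lipids. MLT-7 is a heme peroxidase that crosslinks cuticle proteins, MLT-11 is a Kunitz-type protease inhibitor, and MLT-10 is a secreted nematode protein needed for normal molting.

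The genes lie on 6 chromosomes in WBcel235, and all are protein coding. *noah-1* (WBGene00016422) spans I:5874416-5878958 on the minus strand, and the other 8 are on the plus strand. *noah-2* (WBGene00009926) spans IV:14091254-14096626 and *let-653* (WBGene00002827) spans IV:11885613-11891082. *fbn-1* (WBGene00022816) spans III:7625386-7641078. *mlt-7* (WBGene00022743) spans II:4393007-4404850, *mlt-10* (WBGene00015646) spans II:546705-552032, and *mlt-11* (WBGene00012186) spans V:20667205-20678537. The 2 lipocalin genes are neighbours on X, with *lpr-3* (WBGene00012261) at 11057401-11059793 and *lpr-6* (WBGene00012255) at 11059994-11061871. They are followed on the same strand by *lpr-5* and *lpr-4*, and the gaps between these 4 genes are 200, 251 and 586 bases.

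Some exons are shared with other genes. *fbn-1* overlaps *upp-1* on the opposite strand by 45 exon bases, and *upp-1* held 928 to 2421 reads per library. *mlt-10* overlaps *lips-7* by 109 exon bases and T27A1.3 by 16 on its own strand, and these genes held 0 to 565 and 0 to 18 reads. The sources used here do not say whether reads were counted by strand, so the *fbn-1* and *mlt-10* counts may include or lose reads in these bases. The other shared exon stretches were with small noncoding RNA genes that held no reads.

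The 9 genes differed widely in level at L4. In WT L4 animals *mlt-7* was the most abundant at 67.6 ± 5.06 FPKM (SD, n = 3), followed by *mlt-10* at 29.3 ± 3.84. *noah-1* and *noah-2* came next at 4.90 ± 1.177 and 4.89 ± 0.902, and their libraries overlapped. *lpr-3*, *mlt-11* and *lpr-6* followed between 2.23 and 2.98 FPKM on average, each overlapping its neighbour in the order. *let-653* at 0.655 ± 0.209 and *fbn-1* at 0.462 ± 0.048 were lowest and overlapped each other.

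The *alh-6* L4 libraries had a different order at the top. *mlt-10* averaged 64.0 ± 11.4 FPKM (SD, n = 3) and *mlt-7* 57.8 ± 4.85, and their libraries overlapped. The ratio of *mlt-10* to *mlt-7* was 0.369 to 0.517 in WT L4 libraries and 0.937 to 1.46 in *alh-6* L4 libraries. By contrast, *noah-1* and *noah-2* stayed near equal, with ratios of 0.956 to 1.06 in WT L4 and 0.878 to 1.13 in *alh-6* L4 libraries. Below them the order in the mutant was *lpr-3*, *lpr-6*, *mlt-11*, *let-653* and *fbn-1*, where *lpr-3* overlapped *noah-2* and *lpr-6* overlapped *mlt-11*.

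**Figure D1:**
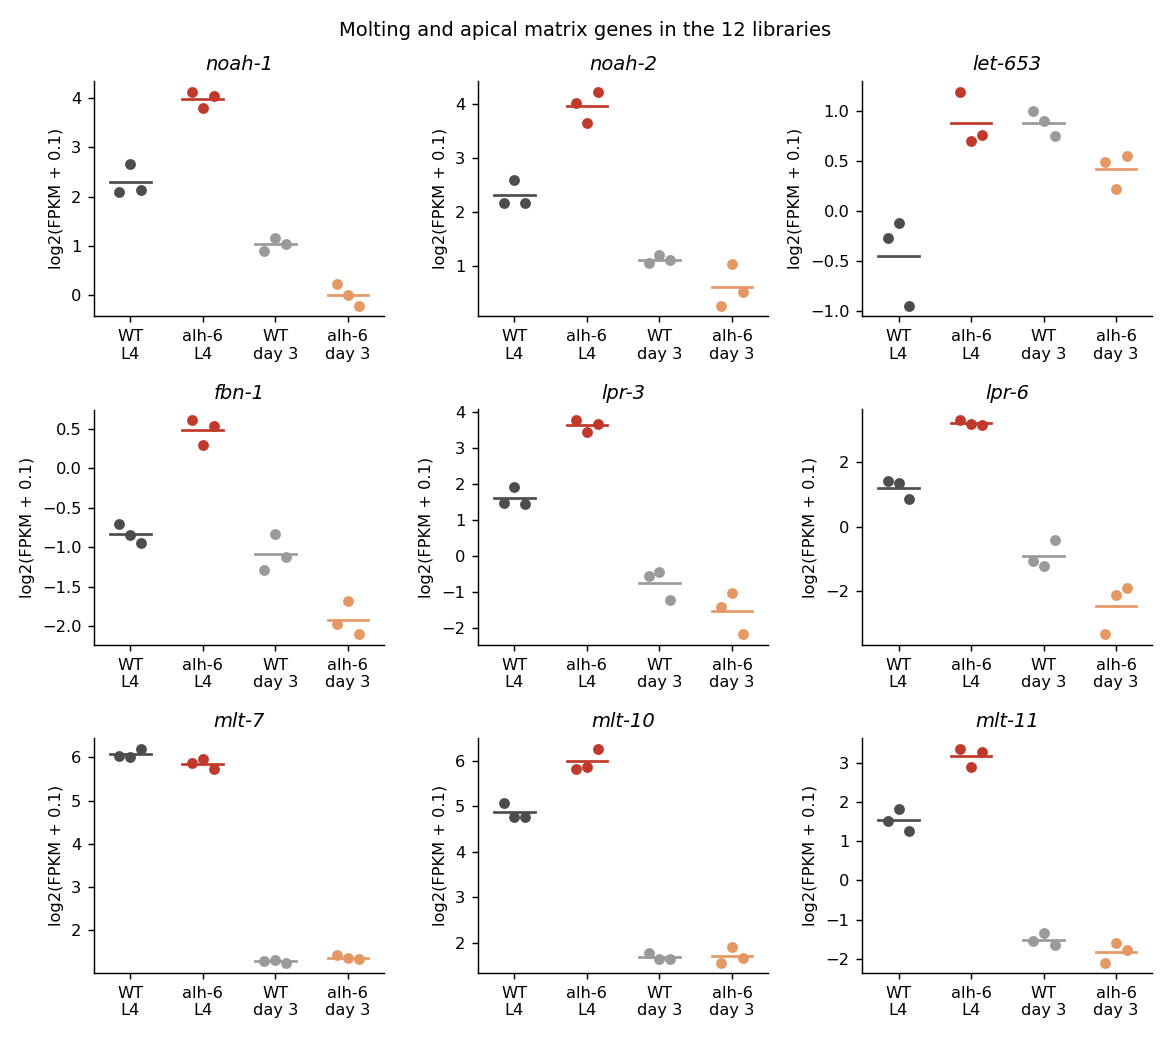
Level of each of the 9 genes in the 12 libraries, as log2(FPKM + 0.1) on the vertical axis with a separate scale per gene. Points are libraries and lines are the means of the 3 libraries in a group. In 8 panels the *alh-6* L4 points lie above the WT L4 points, while in the *mlt-7* panel they lie below.

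The first set of values describes the contrast used to choose some of the genes, *alh-6* against WT at L4. For 8 of the 9 genes all 3 mutant libraries lay above all 3 WT libraries, with a log2 difference of at least 1 on the log2(FPKM + 0.1) scale. Among all 13851 genes that passed the filter at L4 (at least 1 FPKM in at least 3 of the 6 libraries), 3.04% were at least 2-fold higher, 1.44% at least 2-fold lower, and 17.3% had mutant libraries wholly above WT ones. As some of the 9 were picked for being high here, nothing is read from that difference. The exception was *mlt-7*, whose mutant libraries lay below the WT libraries, as did those of 20.3% of all genes.

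Among the ZP-domain genes, *noah-1* was at 4.16, 6.26 and 4.29 FPKM in the WT L4 libraries and at 17.4, 13.9 and 16.3 FPKM in the *alh-6* L4 libraries. *noah-2* was at 4.35, 5.93 and 4.39 FPKM in WT and at 16.0, 12.3 and 18.6 FPKM in the mutant. For both genes WT replicate 2 was the highest WT library and *alh-6* replicate 2 the lowest mutant library, and the genotypes still did not overlap. The log2 differences were 1.69 (SE 0.21) for *noah-1* and 1.65 (SE 0.22) for *noah-2*.

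*let-653* was at 0.728, 0.819 and 0.419 FPKM in WT L4 and at 2.18, 1.52 and 1.58 FPKM in *alh-6* L4 libraries. *fbn-1* was at 0.514, 0.454 and 0.418 FPKM in WT and at 1.42, 1.13 and 1.35 FPKM in the mutant. Although both genes were low, their genotypes were apart, with log2 differences of 1.32 (SE 0.30) for *let-653* and 1.31 (SE 0.12) for *fbn-1*. At this level the pseudocount matters, and with 1 in place of 0.1 the differences were 0.74 and 0.65, less than 2-fold on that scale.

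The neighbouring lipocalin genes had the widest differences of the 9. *lpr-3* was at 2.67, 3.65 and 2.62 FPKM in WT L4 and at 13.5, 10.8 and 12.5 FPKM in *alh-6* L4 libraries. *lpr-6* was at 2.56, 2.44 and 1.69 FPKM in WT and at 9.60, 8.75 and 8.63 FPKM in the mutant. Their log2 differences were 2.02 (SE 0.18) and 1.98 (SE 0.19), which differ from each other by less than either error.

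The *mlt* genes differed among themselves at L4. *mlt-11* was at 2.77, 3.42 and 2.29 FPKM in WT and at 10.1, 7.34 and 9.51 FPKM in the mutant, a log2 difference of 1.64 (SE 0.21). *mlt-10* was at 33.7, 27.045 and 27.1 FPKM in WT and at 56.4, 58.5 and 77.0 FPKM in the mutant, a log2 difference of 1.12 (SE 0.18). It was the gene closest above the 2-fold line, and without *alh-6* L4 replicate 3, its highest library, the difference was 0.98. *mlt-7* was the one gene outside that line, at 65.2, 64.1 and 73.4 FPKM in WT and at 58.3, 62.4 and 52.7 FPKM in the mutant, a log2 difference of -0.22 (SE 0.093).

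No single replicate was highest or lowest for all genes. Among the WT L4 libraries, replicate 2 was the highest for 5 of the 9 genes and replicate 3 the lowest for 5. Among the *alh-6* L4 libraries, replicate 1 was the highest for 6 genes and replicate 2 the lowest for 6.

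Related genes outside the set were tested at L4 with limma over all 13851 genes, and a call needed a Benjamini-Hochberg adjusted p under 0.05 and a 2-fold difference. Calls made up 2.45% of genes in the higher and 0.881% in the lower direction, and by adjusted p alone 8.19% were higher and 7.15% lower. The lists below were drawn up with earlier results of these data known, and they belong to the same contrast that chose some of the 9 genes, so they are not independent of it.

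Of 10 other precuticle and apical matrix genes, 9 were tested and 6 were called higher in *alh-6* L4 animals. For 4 of the 6 all WT libraries reached 1 FPKM, while *lpr-1* and *let-4* did so in 1 WT library each and were tested through the mutant libraries in which they were high. *lpr-4* and *lpr-5*, the lipocalin genes next to *lpr-6*, rose by 1.96 (SE 0.19, limma adjusted p 0.000417) and 1.88 (SE 0.15, limma adjusted p 0.0002). *lpr-1*, a lipocalin gene needed in the excretory duct, was at 1.35, with an adjusted p of 0.069 in a limma fit with no filter. *egg-6*, a leucine-rich repeat protein gene of the same matrix, was lower by the adjusted p but not 2-fold, at -0.35 (limma adjusted p 0.031).

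All 26 genes of a list of other molting enzymes, inhibitors and trafficking proteins were tested at L4. By adjusted p 14 were higher and 2 lower, and 7 of these were called at 2-fold, all higher. The largest were *qua-1*, a hedgehog-related gene, at 1.42 (SE 0.11, limma adjusted p 0.000185), *ptr-4*, a patched-related gene, at 1.35 (SE 0.14, limma adjusted p 0.000532), and *mlt-9*, a molting gene, at 1.34 (SE 0.10, limma adjusted p 0.000185). All 7 called genes reached 1 FPKM in every WT library. The lower genes, *skpo-3* and *skpo-1*, encode peroxidases, while the peroxidase gene *skpo-2*, named after its values were seen, was higher at 0.94 (limma adjusted p 0.00308). *skpo-3* was at 89.1, 96.1 and 92.9 FPKM in WT L4 and at 64.9, 60.7 and 55.5 FPKM in *alh-6* L4 libraries, a log2 difference of -0.62 (SE 0.074, limma adjusted p 0.000985). *skpo-1* was at -0.43 (limma adjusted p 0.00971).

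Genes related to *mlt-10* were mostly too low to test. Of 12 found, 5 passed the filter, with log2 differences between 1.23 and 1.36. For 4 of them, *mltn-1*, *mltn-3*, *mltn-12* and *mltn-13*, fewer than 3 WT libraries reached 1 FPKM. These 4 were tested because they were high in the mutant, and their calls in that fit are no support. In the limma fit with no filter their adjusted p values were 0.0322, 0.0345, 0.00908 and 0.0445, in that order. The other, *mltn-9*, rose by 1.36 (SE 0.24, limma adjusted p 0.00612). In WT L4 libraries all 12 together summed to 5.41 to 6.95 FPKM, well under *mlt-10* alone.

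Regulators that time the molt had smaller differences. None of 10 was called at 2-fold, while 5 were higher by adjusted p, with a list median of 0.43. *grh-1*, the Grainyhead factor, was at 0.91 (SE 0.15, limma adjusted p 0.00401), *lin-42*, the period-related oscillator, was at 0.82 (SE 0.064, limma adjusted p 0.000185), and *myrf-1* was at 0.79 (SE 0.12, limma adjusted p 0.00322). *nhr-23*, a nuclear receptor needed at every molt, was at -0.16 with a limma adjusted p of 0.277.

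Cuticle collagens did not all go one way. The 6 furrow collagens, which organise the ridges of every cuticle, were all called higher in *alh-6* L4 animals, from 1.65 to 2.11, with *dpy-2* the highest at 2.11 (limma adjusted p 0.000185). Their summed level was 20.8 to 26.4 FPKM in WT L4 and 72.9 to 92.3 FPKM in *alh-6* L4 libraries. Of 6 adult cuticle collagens, 3 were called higher: *bli-1* at 1.49 (limma adjusted p 0.000417), *bli-2* at 1.38 (limma adjusted p 7.09e-05) and *rol-6* at 1.35 (limma adjusted p 0.00017). The other 3, *col-7* at -0.87, *col-62* at -0.79 and *col-19* at -0.58, were lower by adjusted p but not 2-fold. The summed level of all 6 was 2021 to 2115 FPKM in WT L4 and 1356 to 1654 FPKM in *alh-6* L4 libraries, and most of it was *col-19*.

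Most of these lists had more genes higher than lower at L4 by adjusted p, while the adult collagens split 3 and 3. The part of these lists in the L4 differences of the 9 genes was not tested. Worms were collected by hours of culture, and how far each culture had gone through the L4 stage cannot be told apart from its genotype here. Of 9 general epidermis markers, all tested at L4, 3 were higher and 1 lower by adjusted p, 5 did not pass, and the list median was 0.039. The 2 called at 2-fold were *dpy-7*, also a furrow collagen, and *che-14*, an apical trafficking gene at 1.22, which reached 1 FPKM in 2 WT libraries and had an adjusted p of 0.0224 with no filter. The lower marker was *col-19*, also an adult collagen. The summed level of the 9 markers was 1550 to 1621 FPKM in WT L4 and 1058 to 1243 FPKM in *alh-6* L4 libraries. Most of that sum was *col-19*, with means of 1359 FPKM in WT L4 and 911 FPKM in *alh-6* L4 animals. The sum therefore follows that collagen and does not describe the other markers.

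**Figure D2:**
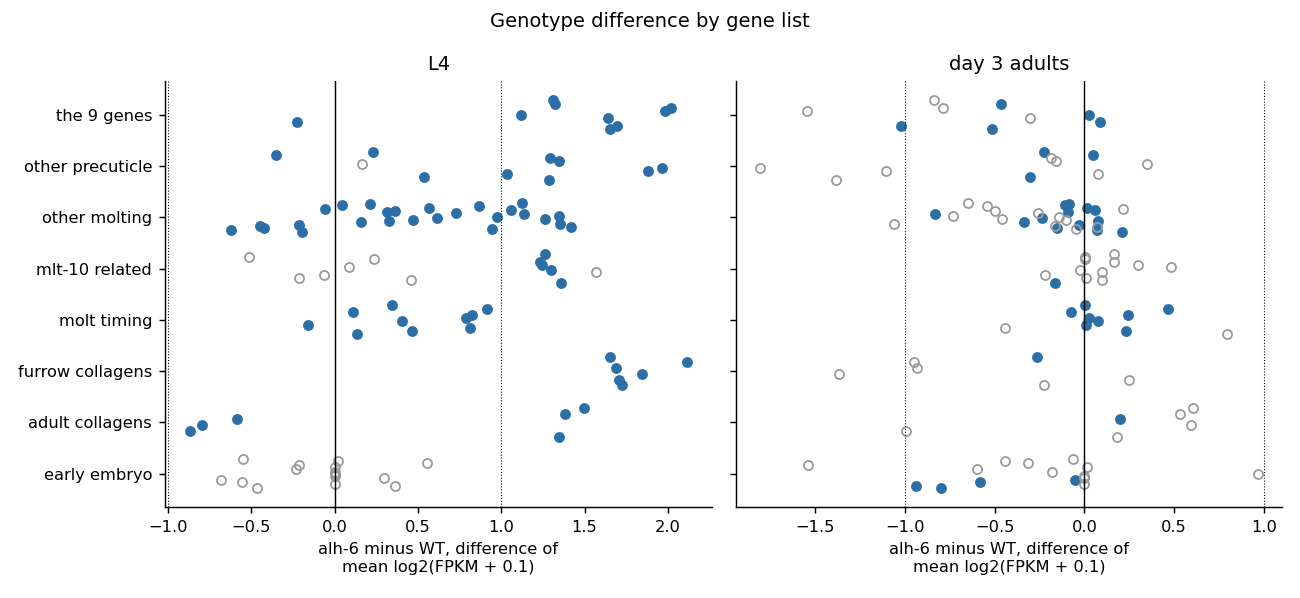
Log2 difference between *alh-6* and WT at L4 (left) and in day 3 adults (right) for the 9 genes and 7 other lists. Each point is a gene, filled where it passed the filter of 1 FPKM in 3 libraries and open where it did not, with dotted lines at a 2-fold difference. At L4 the furrow collagens lie between 1.65 and 2.11 and the adult collagens fall into groups above and below 0.

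The second question was whether the genotypes differ in these genes in day 3 adults, a contrast that was not used to choose them. Here the mutant animals did not show the higher levels described at L4. Of the 9 genes 5 passed the filter and were tested, and 1 was called, *noah-1*, which was lower in the mutant. It passed the filter through its WT libraries, where it was higher, so the call is no support. With no filter none of the 9 was called. Calls made up 0.409% of the 10501 genes tested in the lower direction and 0.409% in the higher direction, 43 genes each. By adjusted p alone *noah-1* was again the one gene past the threshold, against 4.18% of genes lower and 2.14% higher. When each library was rescaled by its median ratio the split became 49 higher and 22 lower.

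*noah-1* was at 1.76, 2.13 and 1.95 FPKM in WT day 3 libraries and at 1.07, 0.904 and 0.760 FPKM in *alh-6* day 3 libraries, from 135, 169 and 165 reads against 79, 68 and 58. All 3 mutant libraries lay below all 3 WT libraries. The log2 difference was -1.02 (SE 0.22, limma adjusted p 0.0254). *noah-1* passed the filter through its WT libraries, since 1 of the 3 mutant libraries reached 1 FPKM, and it sat just past the 2-fold line. The call was lost in several alternatives. With no filter on low values, where 0.573% of 20436 genes were lower by adjusted p, its own adjusted p was 0.0623, and after rescaling the difference was -0.95 with an adjusted p of 0.0406.

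Single libraries also decided that call. Leaving out 1 of the WT adult libraries gave a limma adjusted p of 0.0753 (replicate 1), 0.0907 (replicate 2) or 0.123 (replicate 3). Among the mutant adult libraries, dropping replicate 2 gave 0.0669, and dropping replicate 3 gave a difference of -0.91, below 2-fold, at 0.036. In a fit of read counts recovered from the deposited values (limma-voom, chosen after seeing the data) the difference was -1.10 with an adjusted p of 0.000374. The direction was the same in every fit run.

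The related ZP-domain gene *noah-2* was at 1.96, 2.18 and 2.05 FPKM in WT day 3 and at 1.09, 1.93 and 1.33 FPKM in *alh-6* day 3 libraries. The libraries did not overlap, but *alh-6* replicate 2 came within 0.1 FPKM of the lowest WT library, and the difference of -0.52 (SE 0.23) did not pass (limma adjusted p 0.183). The ratio of *noah-1* to *noah-2* was 0.894 to 0.977 in WT day 3 libraries and 0.469 to 0.980 in *alh-6* day 3 libraries. The mutant ratios rest on 79, 68 and 58 reads of *noah-1* and 55, 99 and 69 reads of *noah-2*. Their wider range was not tested.

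*let-653* was at 1.90, 1.76 and 1.58 FPKM in WT day 3 and at 1.30, 1.06 and 1.36 FPKM in *alh-6* day 3 libraries. The genotypes did not overlap, and the difference of -0.46 (SE 0.21) did not pass (limma adjusted p 0.188).

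*mlt-7* and *mlt-10* were close between the genotypes in adults. *mlt-7* was at 2.33, 2.39 and 2.28 FPKM in WT and at 2.59, 2.44 and 2.41 FPKM in the mutant, a log2 difference of 0.08 (SE 0.16, limma adjusted p 0.765). *mlt-10* was at 3.29, 3.01 and 2.99 FPKM in WT and at 2.84, 3.62 and 3.04 FPKM in the mutant, a difference of 0.03 (SE 0.16, limma adjusted p 0.93). Its libraries overlapped, and without *alh-6* day 3 replicate 2 the difference was -0.07.

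The other 4 genes did not reach the filter in adults and were examined by their reads. *fbn-1* held 54, 83 and 69 reads in WT day 3 libraries and 26, 36 and 23 in *alh-6* day 3 libraries, with no overlap in FPKM. Its log2 difference was -0.84 with an adjusted p of 0.293 in the limma fit with no filter. In the voom fit chosen after seeing the data it was -1.17 with an adjusted p of 0.00646. The 2 fits differ both in the model and in the genes adjusted over.

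*lpr-6* held 9, 8 and 17 reads in WT day 3 libraries and 0, 3 and 4 in *alh-6* day 3 libraries, a log2 difference of -1.55 with a limma adjusted p of 0.182 and no filter. *lpr-3* held 24, 27 and 15 reads in WT and 11, 16 and 5 in the mutant, and its libraries overlapped (-0.79, limma adjusted p 0.4 with no filter). Neither difference passed the threshold. *mlt-11* libraries overlapped too, at 0.245, 0.294 and 0.217 FPKM in WT and at 0.134, 0.232 and 0.194 FPKM in the mutant (-0.31, limma adjusted p 0.697 with no filter).

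Counted by overlap alone, 5 of the 9 genes had mutant day 3 libraries wholly below WT ones, namely *noah-1*, *noah-2*, *lpr-6*, *let-653* and *fbn-1*. Among the 10501 genes tested 24.5% did so, and 15% of the 20436 genes with any reads. *mlt-7* had mutant libraries wholly above WT ones, as did 8.28% of genes tested, and 3 genes overlapped. For 6 genes the libraries were apart in opposite directions at L4 and day 3, as for 3.88% of the 13851 genes that passed the filter at L4, and since this uses the L4 values that chose some genes, nothing is read from it.

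**Figure D3:**
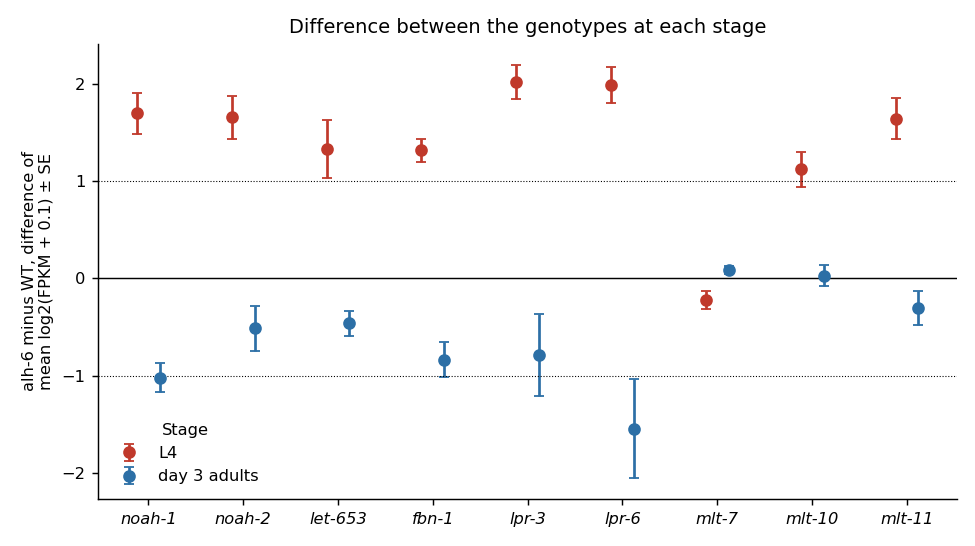
Log2 difference between *alh-6* and WT for each gene at L4 (red) and in day 3 adults (blue), as the difference of mean log2(FPKM + 0.1) with its SE from 3 libraries a group. Dotted lines mark 2-fold. At L4, 8 genes lie above 1 and *mlt-7* at -0.22, and in day 3 adults the values run from -1.55 for *lpr-6* to 0.08 for *mlt-7*.

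The related lists gave few calls in day 3 adults. No gene of the other precuticle (3 tested), other molting (13 tested), *mlt-10* related (1), molt timing (8), furrow collagen (1), adult collagen (1) or epidermis (7) lists passed the limma adjusted p, with or without the 2-fold requirement. Most of these genes were below the filter in adults. Furrow collagens summed to 7.71 to 8.48 FPKM (WT day 3 libraries) and 4.81 to 6.63 FPKM (*alh-6* day 3 libraries). *dpy-10*, the 1 furrow collagen tested, made up most of these sums, with means of 5.40 (WT) and 4.50 FPKM (*alh-6*). Mutant libraries lay wholly below WT ones for 3 of 6 furrow collagens, 3 of 10 precuticle and 7 of 26 molting genes. The *mlt-10* related, molt timing, adult collagen and epidermis lists had 1 such gene each. Wholly above were 1 molt timing and 2 epidermis genes. The share wholly below was 15% of all genes with any reads and 24.5% of those tested.

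Day 3 hermaphrodites carry embryos, whose epidermis also uses several of these matrix genes. Beside them 15 early embryo genes were examined, which were not chosen to mark that epidermis. Their summed level was 18.2 to 21.4 FPKM in WT day 3 libraries and 12.1 to 12.6 FPKM in *alh-6* day 3 libraries, against 0.344 to 0.833 FPKM in the L4 libraries of both genotypes. The sum rests on a few genes, with *tbx-38* the highest in WT day 3 libraries at 7.17, 5.37 and 8.08 FPKM. By overlap, 4 of the 15 genes had mutant day 3 libraries wholly below WT ones and 11 overlapped. Over all genes with any reads, 15% lay wholly below. Of the 4 tested, *tbx-37* at -0.94 (SE 0.17, limma adjusted p 0.0121) and *tbx-38* at -0.80 (SE 0.18, limma adjusted p 0.0296), T-box factors of the early embryo, were lower by adjusted p, while *pes-10* at -0.58 (limma adjusted p 0.0759) and *pes-1* at -0.05 were not. The endoderm and mesoderm genes *med-1*, *med-2* and *tbx-35* were at 0 in all WT day 3 libraries. *hch-1*, the hatching enzyme gene, named after its values were seen, was at 0.858, 0.807 and 1.06 FPKM in WT day 3 and at 0.132, 0.232 and 0.432 FPKM in *alh-6* day 3 libraries. The part of embryo RNA in the lower *noah-1* level of mutant adults was not tested.

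The third comparison followed the genes from L4 to day 3 adulthood within WT animals. It uses the same WT L4 libraries as the contrast that chose some genes. Low WT L4 values make such a choice more likely, and they also favour a rise to day 3 and make a fall smaller. The tests of the 9 genes here are therefore not independent of the choice. RNA of *mlt-7*, *mlt-10*, *noah-1* and *noah-2*, which passed the filter at both stages, fell. Calls were common in this comparison, at 41.5% of 13674 genes in the lower and 22.7% in the higher direction, and the median over all genes was -0.40. By adjusted p alone the shares were 51.5% and 39.5%. Adult libraries lay wholly below L4 libraries for 51.8% of genes and wholly above for 39.9%. *lpr-3*, *lpr-6* and *mlt-11* passed the filter through their L4 libraries alone and *let-653* through its day 3 libraries alone, so these 4 had to differ and their tests in that fit are no support. They are therefore given from a limma fit with no filter, over 22110 genes, of which 32.8% were called lower and 16.2% higher. In that fit 7 of the 9 genes were called lower, 1 higher (*let-653*) and *fbn-1* neither.

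The enzyme, inhibitor and MLT-10 genes fell the most. *mlt-7* went from 67.6 ± 5.06 to 2.33 ± 0.057 FPKM (SD, n = 3), a log2 difference of -4.80 (SE 0.084, limma adjusted p 5.03e-10). *mlt-10* went from 29.3 ± 3.84 to 3.10 ± 0.169 FPKM, a difference of -3.19 (SE 0.11, limma adjusted p 1.33e-08), and thereby replaced *mlt-7* as the most abundant of the 9. *mlt-11* went from 2.83 ± 0.564 to 0.252 ± 0.039 FPKM, a difference of -3.04 (SE 0.23, limma adjusted p 1.1e-05 with no filter).

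The lipocalin genes fell by a similar amount to each other. *lpr-3* went from 2.98 ± 0.581 to 0.512 ± 0.161 FPKM (-2.35, SE 0.27, limma adjusted p 0.000127 with no filter) and *lpr-6* from 2.23 ± 0.471 to 0.453 ± 0.174 FPKM (-2.10, SE 0.29, limma adjusted p 0.000383 with no filter). The *noah* genes fell least of the genes called lower. *noah-1* was at -1.27 (SE 0.20, limma adjusted p 0.00021) and *noah-2* at -1.19 (SE 0.17, limma adjusted p 0.000128), with WT day 3 levels of 1.95 ± 0.187 and 2.06 ± 0.110 FPKM (SD, n = 3). Rescaling moved the median of all genes by 0.23, and *noah-2* was then at -0.97, just under 2-fold.

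*let-653* and *fbn-1* did not follow the others. *let-653* went from 0.655 ± 0.209 to 1.75 ± 0.161 FPKM (SD, n = 3), a log2 difference of 1.33 (SE 0.26, limma adjusted p 0.00281 with no filter), and its 3 adult libraries all lay above its L4 libraries. Its low WT L4 values belong to the contrast that chose some genes, so this test is no support for a rise. *fbn-1* was at 0.310, 0.461 and 0.359 FPKM in WT day 3 libraries, overlapping its L4 range, with a difference of -0.25 (adjusted p 0.427 in the limma fit with no filter).

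Many related genes were too low in WT adults to reach the filter there, and were tested through their L4 libraries alone, so calls are counted below from the limma fit with no filter. Of 26 other molting genes, 21 were called lower in that fit and 1 higher. *nas-7*, an astacin protease gene, was at -5.26 on the log2 scale (limma adjusted p 4.68e-07 with no filter), *qua-1* at -5.07 (limma adjusted p 1.46e-07 with no filter) and *skpo-3*, which passed the filter at both stages, at -4.89 (limma adjusted p 3.04e-10). The peroxidase gene *skpo-1* rose by 2.30 (limma adjusted p 1.9e-09). Of 10 other precuticle genes, 7 were called lower with no filter, led by *lpr-7* at -4.44 (limma adjusted p 1.02e-06 with no filter), and *egg-6* was called higher at 2.17 (limma adjusted p 2.27e-09). *lpr-5* at -2.30 and *lpr-4* at -2.23 had differences of the same size as their neighbours *lpr-3* and *lpr-6*.

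Of the 10 molt timing regulators 6 were called lower in WT adults with no filter, led by *lin-42* at -3.45 (limma adjusted p 1.49e-08), *nhr-85* at -2.87 (limma adjusted p 2.61e-05 with no filter) and *nhr-41* at -2.08 (limma adjusted p 3.91e-07). Of the furrow collagens 5 of 6 were called lower with no filter and of the adult collagens 6 of 6. Of 9 epidermis markers 6 were called lower with no filter, among them the factor gene *elt-3* at -2.95 (limma adjusted p 3.99e-08), and 1 higher, the factor gene *lin-26* at 1.29 (limma adjusted p 4.16e-08).

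In *alh-6* mutants the same stage difference starts from the L4 libraries in which some genes were chosen for being high, so it is given without a test. Day 3 libraries lay wholly below L4 libraries for all 9 genes, and for 53.3% of the 13798 genes that passed the filter, whose median difference was -0.55. The log2 differences were -5.63 (SE 0.45) for *lpr-6*, -5.16 (SE 0.35) for *lpr-3*, -4.99 (SE 0.20) for *mlt-11*, -4.49 (SE 0.077) for *mlt-7* and -4.29 (SE 0.17) for *mlt-10*. They were -3.99 (SE 0.16) for *noah-1*, -3.36 (SE 0.28) for *noah-2*, -2.40 (SE 0.15) for *fbn-1* and -0.46 (SE 0.19) for *let-653*. *let-653* thus had opposite signs in the genotypes, with adult libraries above L4 libraries in WT and below them in the mutant. *mlt-7* was the gene with nearly the same difference in both, -4.80 and -4.49.

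**Figure D4:**
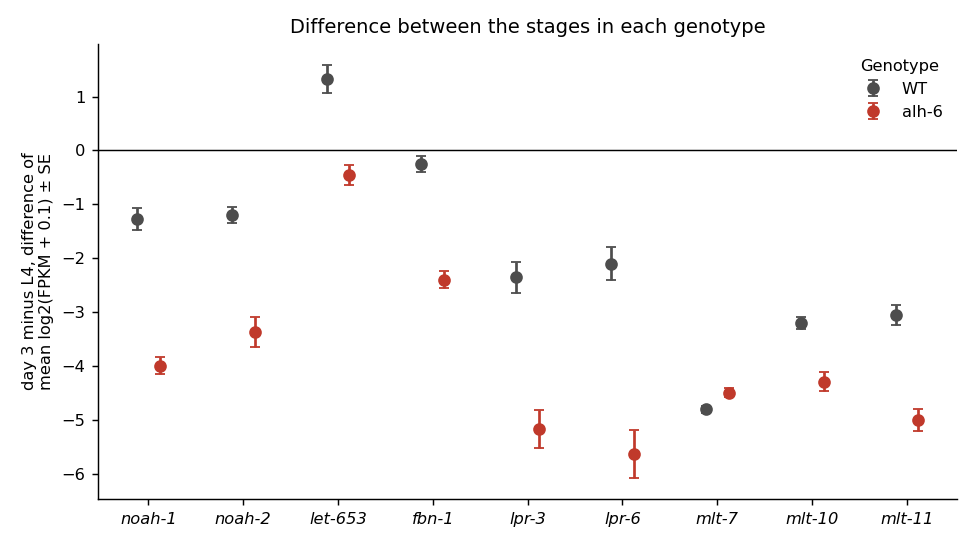
Log2 difference between day 3 adults and L4 animals for each gene in WT (grey) and *alh-6* mutants (red), as the difference of mean log2(FPKM + 0.1) with its SE from 3 libraries a group. *let-653* lies at 1.33 in WT and -0.46 in the mutant, and *mlt-7* lies at -4.80 and -4.49.

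In adults the order of levels was *mlt-10*, *mlt-7*, *noah-2*, *noah-1*, *let-653*, *lpr-3*, *lpr-6*, *fbn-1* and *mlt-11* in WT, where *noah-2* overlapped *noah-1*, *noah-1* overlapped *let-653*, *lpr-3* overlapped *lpr-6* and *lpr-6* overlapped *fbn-1*. The mutant adults kept *mlt-10* and *mlt-7* at the top, at 3.17 ± 0.404 and 2.48 ± 0.097 FPKM (SD, n = 3), and had *lpr-6* at the bottom, at 0.0999 ± 0.0889. *let-653* there stood at 1.24 ± 0.156 FPKM, above *noah-1* at 0.912 ± 0.156, though their libraries overlapped.

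Over the 12 libraries, which share 4 groups and so are not independent points, *let-653* had a profile unlike the others. Its Pearson correlation with each of the other 8 genes lay between -0.40 and 0.25, while all other pairs lay between 0.73 and 0.99. The closest pair was *mlt-10* and *mlt-11* at 0.99. *fbn-1* and *mlt-7* were the least alike of those pairs, at 0.73.

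The mean standardized profile of the 9 genes was compared with 9312 other genes that averaged at least 5 FPKM, over the same 12 libraries. That profile holds the same L4 values, so the ranking is a description. The 10 most alike were *oatr-1*, *alh-3*, *dao-2*, *igcm-3*, *asp-12*, *dpy-7*, *idh-2*, *nab-1*, *spl-1* and *cpt-5*, with Pearson correlations from 0.988 for *oatr-1* to 0.977 for *cpt-5*. *dpy-7*, a furrow collagen, averaged 4.64 FPKM in WT L4, 16.8 in *alh-6* L4, 0.799 in WT day 3 and 0.288 in *alh-6* day 3 animals. *dao-2* had a similar spread of levels, at 22.0, 75.8, 3.58 and 1.79 FPKM. *oatr-1*, an ornithine aminotransferase gene, moved far less in size, at 147, 189, 113 and 107 FPKM.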

How the data were processed

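RNA of whole worms was sequenced in 12 libraries (4 groups of 3, biological replicates per the study's methods). Per the labels, the authors used CASAVA 1.8, TopHat2 2.0.12 with Bowtie2 2.2.3 on ce11 (WBcel235), HTSeq 0.6.1 and DESeq 1.18.0. They deposited FPKM per gene and library, used here for every level and test. The authors' group means of DESeq-normalized counts (a signal, deposited per group) served only to recover reads: 100% of values came out whole within 0.01, the largest distance being 6.43e-05. Columns with the authors' fold changes and p-values were not used.

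Of 46726 identifiers, 46364 were in the WBcel235 annotation (release 115). The test was limma 3.58.1 (R 4.3.3; trend and robust options) on log2(FPKM + 0.1), which understates changes of low genes, for genes with at least 1 FPKM in at least 3 of 6 libraries, with Benjamini-Hochberg adjustment over all genes tested. A call needed an adjusted p under 0.05 and a 2-fold difference. Fits were tested on simulated data. The genes changed there averaged more reads than any gene of the set had in day 3 adults, so such low levels were not covered. Alternatives were pseudocounts of 1 and 0.01, no filter, rescaling by median ratios, all 12 libraries in 1 fit, a replicate block, leaving out each library, no fold threshold, and, added after seeing the data, limma-voom on recovered reads (at least 10 reads in 3 libraries).

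The 9 genes and the lists were chosen with earlier results of these data known. Named were all 9, up to 3 called genes per list and direction with the largest change, and the 10 genes most alike in profile; others named (non-called list genes, *hch-1*) were chosen after their values were seen. 1 of 13 *mlt-10* related symbols was not matched. Promoter sequences were not used here, so the motif search planned for them was not run. SD and SE cover the spread between 3 libraries.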

Additional observations from a re-analysis of the deposited data

Results flagged for a closer look

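For 6 of the 9 genes all mutant libraries lay on one side of all WT libraries at L4 and on the opposite side in day 3 adults, as did 3.88% of the 13851 genes that passed the filter at L4. The count includes the L4 values by which some of the genes were chosen, so nothing is read from it. The day 3 log2 difference between the genotypes minus that at L4 was -2.72 for *noah-1*, -2.17 for *noah-2*, -3.53 for *lpr-6*, -1.79 for *let-653* and -2.15 for *fbn-1*, all higher in the mutant at L4 and lower in adults. For *mlt-7* it was 0.309, lower in the mutant at L4 and higher in adults. None of these differences between stages was tested, since some genes were chosen for their L4 values. The *lpr-6* value rests on 0 to 17 reads per adult library. Groups of 3 libraries are too small for a check of single libraries that stand apart.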

How the results depend on the processing

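In day 3 adults the count of genes called lower, 1 at the settings used, was 0 with a pseudocount of 1, with no filter, after rescaling and with a replicate block, 2 with limma-voom on recovered reads, and 0 to 1 when single libraries were left out. For *noah-1* the log2 difference was -0.62 (limma adjusted p 0.023) with a pseudocount of 1, and from -1.13 to -0.91 without single libraries. It was called with a pseudocount of 0.01 and in the fit of all 12 libraries. *mlt-10*, at 0.03 with all libraries, ranged from -0.071 to 0.098 without single libraries, the lowest and a change of sign without *alh-6* day 3 replicate 2, and the cause was not tested. Fitting replicate number as a replicate block left *noah-1* at -1.02 with an adjusted p of 0.0509. Numbers did not pair the day 3 libraries. Across genes, deviations from the group mean correlated at -0.0527 to -0.0176 between same-numbered WT and *alh-6* day 3 libraries. At L4 the same-numbered values were -0.00607 to 0.139 and the different-numbered ones -0.104 to 0.11.

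From L4 to day 3 in WT, 7 genes were called lower and 1 higher without any single library, counting the 4 that were tested through 1 stage. With a pseudocount of 1 the count higher was 0, as *let-653* was at 0.74, and *noah-1* (-0.99) and *noah-2* (-0.93) were also under 2-fold, which the larger pseudocount does to low genes by construction. At L4, leaving out libraries gave 7 to 8 genes at least 2-fold higher, and with a pseudocount of 1 *lpr-3* and *lpr-6* were at 1.74 and 1.64. *fbn-1* was at 1.47 with a pseudocount of 0.01 and 1.49 with limma-voom. Low adult levels limit *lpr-3*, *lpr-6*, *fbn-1* and *mlt-11*, with 0 to 83 reads per library.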
